A study of Mus musculus with 6 samples.

Results

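The genes of glycolysis, lactate exchange and glycogen turnover were examined in upper-layer astrocytes (ULAs) and deep-layer astrocytes (DLAs) of the mouse neocortex. The group was set by 39 gene symbols of enzymes and transporters, by name and not by a threshold on measured values, and 38 of them named a row among the 43383 rows of the deposited table, pyruvate kinase being listed as Pkm. The symbols were proposed with earlier results of these data in view. Of the 38 genes, 35 had a mean of at least 1 RPKM (a read count scaled to mRNA length and library size) over the 6 libraries and entered the layer comparison. The remaining 3, Hk2, Slc16a3 and Slc16a7, fell below this level and are given by their values.

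Astrocytes came from the somatosensory cortex of male Aldh1l1-eGFP mice at 4 weeks of age, in which green fluorescent protein is expressed under the astrocytic Aldh1l1 gene, and were isolated by fluorescence sorting. ULAs were taken from layers II–IV and DLAs from layers V and VI of the same 3 brains, giving 3 libraries per layer. The samples hold neither pial tissue nor layer I or white matter of the corpus callosum, and they cover layers IV and V only in part, since the border zone was not kept. The comparison asks whether the metabolic genes of astrocytes differ in mRNA level between the layers. All libraries share the transgene, the sex and the age, and each is bulk RNA, so that fewer cells of a kind and less RNA per cell cannot be told apart.

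Glycolysis splits glucose into pyruvate in the cytosol, and pyruvate is then either oxidized in mitochondria or reduced to lactate and exported. In brain tissue, astrocytes take up glucose at their endfeet on blood vessels, hold nearly all of the glycogen, and release lactate that neurons can use as fuel. Many steps are catalysed by isozymes of distinct genes, and the isozyme used is often a mark of a cell type, aldolase C being a classical astrocytic protein.

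Read depth was between 19.7 and 29.6 M reads per library, as inferred from the spacing of RPKM in short rows. The 10 astrocyte markers all averaged above 1 RPKM and summed to 6314–6558 RPKM in ULAs and 5174–5502 in DLAs. Most of these sums came from Slc1a3 and Gja1, which the paper lists as upper-layer enriched. Slc1a3, Gja1, Slc1a2 and Fgfr3 were higher in every ULA library. S100b (129–143 RPKM in ULAs and 160–172 in DLAs) and Gfap (10.4–12.5 and 17.8–28.8) were higher in every DLA library, and the other astrocyte markers overlapped. Of 10 neuronal markers only Snap25 reached a mean of 1 RPKM, and the summed level was 7.29–7.68 in ULAs and 5.27–7.9 in DLAs. None of 10 endothelial markers reached a mean of 1 RPKM over the libraries (sums of 1.54–2.44 and 1.01–4.22), with Kdr listed at 0 in 4 of 6 libraries. Oligodendrocyte markers, 9 of 10 of which averaged above 1 RPKM, summed to 87.7–181.3 in ULAs and 179.2–285.4 in DLAs. Within each brain they were higher in DLAs. Their part in the differences described here was not tested.

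As a group, the metabolic genes were abundant, and their layer differences were about as small as those of the table as a whole. Their median level was 83.55 RPKM, against 8.24 over all 13999 tested rows. In the limma comparison, with brain and layer as terms, 0 of the 35 genes passed an adjusted p-value of 0.05 in either direction, where 1.63% of all tested rows passed (0.714% for ULAs and 0.914% for DLAs). At an unadjusted p-value under 0.05 there were 6 of the 35 genes (17.1%), against 16.4% of all tested rows. Of these 6, Gapdh, Slc16a1 and Slc2a1 had higher values in ULAs (8.57%, against 5.64% of rows), and Aldoa, Ldhb and Pygm had higher values in DLAs (8.57%, against 10.8%). A share near that of all rows says nothing particular about the group.

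The log2 fold changes (ULA minus DLA, on the log2(RPKM + 1) scale) had a median of −0.06 against −0.03 over all tested rows, and the median size was 0.124 against 0.140. On this scale the largest was 0.42, for Gapdh, and all 35 lay within 0.5 of 0, as did 95.9% of all tested rows. With a pseudocount of 0.1 the largest was that of Pygl, at 0.58. For 32 of 35 genes the 95% interval of the fold in RPKM + 1, which understates the fold in RPKM of low genes such as Pgam1, Pdk1 and Pygl, stayed within 1.5-fold either way. The exceptions were Gapdh, with an interval of 1.09- to 1.64-fold, Pdk1, with 0.999- to 1.56-fold, and Pygl, with 0.956- to 1.6-fold (ULA over DLA). When 200 of the 13999 rows were simulated with a log2 difference of 0.5, 35.5% were recovered, so most such differences were missed with 3 brains. The median standard error of the 35 genes was smaller (0.113, against 0.1345 over all tested rows), so this share is not their own recovery rate. Smaller differences, such as those measured here, were not simulated.

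**Figure D1:**
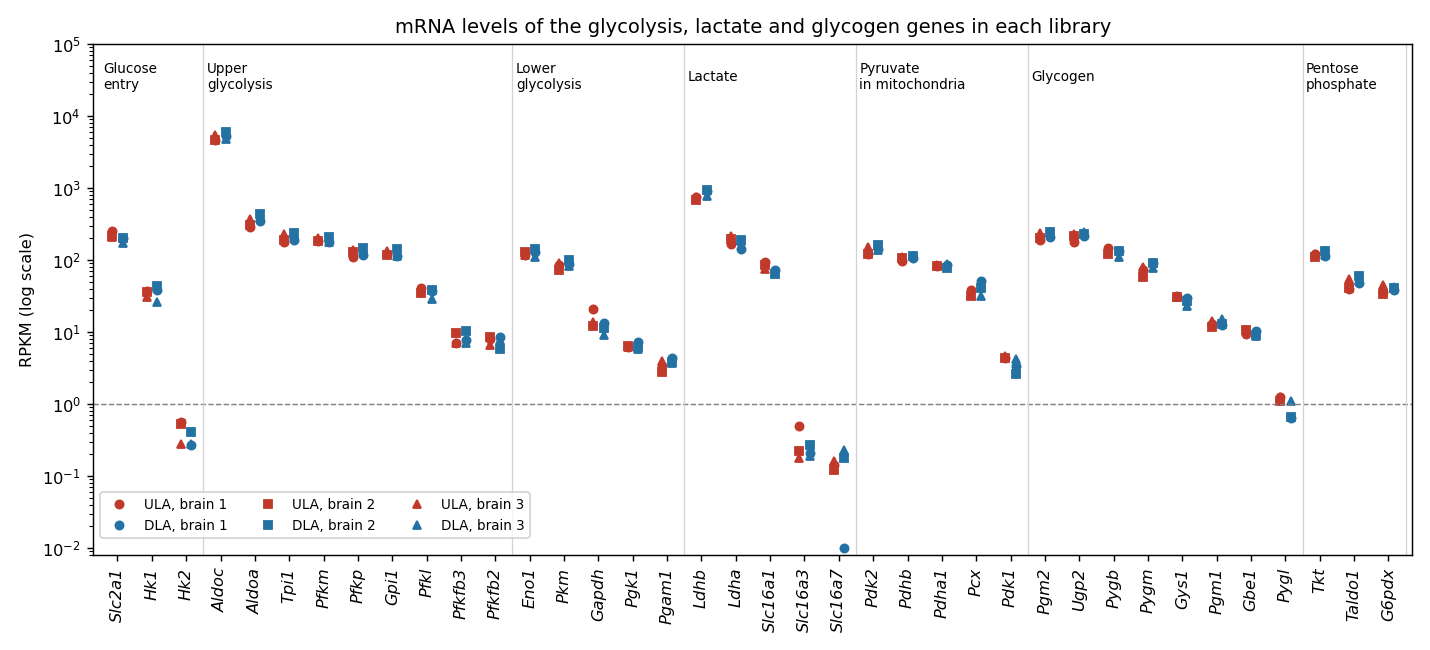
RPKM of the 38 genes in each library on a log scale, grouped by role, with ULAs in red, DLAs in blue and 1 marker shape per brain. The dashed line is 1 RPKM. Aldoc lies above all other genes, with a mean of 5126 RPKM, the 2 layers lie close together for nearly every gene, and Hk2, Slc16a3 and Slc16a7 lie below the line.

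Glucose entry was carried by Slc2a1 and Hk1. Slc2a1, the facilitative glucose transporter of the blood–brain barrier and of astrocytes, spans 10 exons on chromosome 4 from 118781350 to 118809934 (mm9). In brains 1, 2 and 3, respectively, it measured 252.2, 215.5 and 207.9 RPKM in ULAs and 202.9, 198.9 and 169.7 RPKM in DLAs. Every ULA library was above every DLA library, and ULAs were higher in 3 of 3 brains. The log2 fold change was 0.24 (adjusted p = 0.248, SE 0.09), an estimated 1.18-fold difference with a 95% interval of 1.02 to 1.37. Endothelial cells also express this transporter. The highest of the 10 endothelial markers was Esam, at 0.57–1.45 RPKM, Cldn5 reached 1.08 and Pecam1 0.16, and the part of endothelial RNA in the value of Slc2a1 was not tested. Hk1, the hexokinase of brain that traps glucose by phosphorylation, had means of 34.4 ± 3.26 RPKM in ULAs and 35.8 ± 8.71 in DLAs (SD), with a log2 fold change of −0.03 (SE 0.12, and 0.06 under quantile normalization). Hk2, the inducible hexokinase, stood at 0.56, 0.53 and 0.28 RPKM in ULAs and 0.27, 0.41 and 0.28 in DLAs, which rested on 40 to 75 reads per library. Hk1 thus held between 98.5% and 99.3% of the summed RPKM of both hexokinases.

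In upper glycolysis, from glucose phosphate to the triose phosphates, Aldoc was by far the most abundant mRNA. Aldoc encodes aldolase C, which cleaves fructose bisphosphate, and its mean of 5126 RPKM was the 6th highest of the whole table. It measured 4568, 4664 and 5480 RPKM in ULAs and 5343, 5925 and 4775 in DLAs. The DLA library was the higher in brains 1 and 2 and the ULA library in brain 3, so that the layers overlapped (log2 fold change −0.12, adjusted p = 0.646, SE 0.12). Aldoa, the aldolase of muscle and most other tissues (11 exons, mm9 chromosome 7 from 133938748 to 133943961), measured 285.4, 303.8 and 366.6 RPKM in ULAs and 346.3, 440.0 and 383.4 in DLAs. DLAs were higher in 3 of 3 brains, though the ranges overlapped, because the ULA value of brain 3 exceeded the DLA value of brain 1. The log2 fold change of Aldoa was −0.29 (adjusted p = 0.222, SE 0.11).

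Aldoa mRNA made up 5.88%, 6.12% and 6.27% of the summed aldolase A and C RPKM in ULAs and 6.09%, 6.91% and 7.43% in DLAs. The share was higher in DLAs in 3 of 3 brains, by 0.723 ± 0.483 percentage points (SD), and the ranges overlapped. An exact paired permutation test gave p = 0.25, which is the smallest p that 3 pairs allow. The reads were 36 bases long, and a stretch of that length from both messages is shown as an example of how they differ. The stretch of Aldoa with the most copies elsewhere that aligns within 1 exon (exon 5, GRCm38 chr7:126796872-126796907, minus strand) and the nearest stretch of Aldoc (exon 3, chr11:78324910-78324945, plus strand) are shown 5′ to 3′, with capitals at the 9 bases that differ.
Aldoa: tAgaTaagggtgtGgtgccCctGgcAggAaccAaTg
Aldoc: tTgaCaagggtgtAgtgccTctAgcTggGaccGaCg
None of the 36-base windows of Aldoc occurred at another locus of the GENCODE annotation, against 27.5% of those of Aldoa.

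The other 7 genes of upper glycolysis had fold changes between −0.12 and 0.14 on the log2 scale, and their lowest adjusted p-value was 0.572, for Tpi1. Among the subunits of phosphofructokinase, the committed step, Pfkm (means of 190.1 and 188.4 RPKM in ULAs and DLAs) and Pfkp (127.0 and 132.9) were the major ones and Pfkl (37.9 and 34.6) the minor one. Pfkl held 12.3%, 9.98% and 9.93% of their sum in ULAs and 11%, 9.70% and 8.52% in DLAs. The share of Pfkl was higher in ULAs in 3 of 3 brains, with overlapping ranges (exact paired permutation p = 0.25). Pfkfb2 and Pfkfb3, bifunctional enzymes that set the level of the activator of phosphofructokinase, were at 5.86–8.56 and 7.01–10.2 RPKM over all 6 libraries. The related Pfkfb4, which is outside the group, was more abundant, with means of 28.5 RPKM in ULAs and 28.7 in DLAs. Tpi1, which interconverts the triose phosphates, had means of 198.9 ± 26.0 and 216.6 ± 24.6 RPKM, and Gpi1, which isomerizes glucose phosphate, had 123.6 ± 8.64 and 123.3 ± 17.2 RPKM in ULAs and DLAs.

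In lower glycolysis, from the triose phosphates to pyruvate, Eno1 and Pkm were the most abundant. Eno1, the widely expressed enolase, was at 118.6, 128.1 and 118.9 RPKM in ULAs and 129.4, 144.0 and 109.0 RPKM in DLAs. The layers overlapped, with the higher value in DLAs in brains 1 and 2 and in ULAs in brain 3 (log2 fold change −0.06, adjusted p = 0.826, SE 0.10, and 0.03 under quantile normalization). Pkm, pyruvate kinase, which makes pyruvate and ATP, had means of 82.4 ± 8.90 and 89.7 ± 8.0 RPKM, also overlapping. The values of Gapdh, Pgk1 and Pgam1, which catalyse the oxidation, the first ATP-forming step and the mutase step, were far lower, with means over the libraries of 13.4, 6.32 and 3.69 RPKM.

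Gapdh, on mm9 chromosome 6 from 125111870 to 125115601 with 7 exons, had the largest layer difference of the group on the log2(RPKM + 1) scale. Its values were 21.11, 12.19 and 13.58 RPKM in ULAs and 13.34, 11.30 and 9.11 in DLAs. ULAs were higher in 3 of 3 brains, but the ULA value of brain 2 lay below the DLA value of brain 1, so the ranges overlapped. The log2 fold change was 0.42 (adjusted p = 0.164, SE 0.13). Pgk1 stood at 5.80–7.24 RPKM and Pgam1 at 2.81–4.37 RPKM over the 6 libraries, with log2 fold changes of −0.04 (SE 0.13) and −0.19 (SE 0.15).

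The levels of these enzymes are uncertain for a reason of sequence. Each transcript was cut into all of its 36-base windows, the length of a read, and a window was counted as shared when it also occurred in a transcript of another locus. Gapdh shared 83.7% of its windows, Eno1 75.9% and Pgk1 68.2%, and these were the only 3 of the 35 genes above 50%. The copies of Gapdh lay at 290 other loci, of which 226 were annotated purely as pseudogenes. For each gene, the coding window that lies within 1 exon and occurred at the most other loci is printed 5′ to 3′ from the GENCODE M21 transcripts on GRCm38, all in lower case because the whole run is shared. That of Gapdh lies in exon 4 (chr6:125162918-125162953, minus strand) and was found at 114 other loci, that of Pgk1 in exon 8 (chrX:106200252-106200287, plus strand) at 4, and that of Eno1 in exon 7 (chr4:150245133-150245168, plus strand) at 5.
Gapdh: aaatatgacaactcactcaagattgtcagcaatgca
Pgk1: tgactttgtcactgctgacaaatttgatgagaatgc
Eno1: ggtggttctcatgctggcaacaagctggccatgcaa
A read on such a stretch could be assigned to the gene or to a copy, or be dropped, and how the authors treated such reads is not given in the sources used here. The RPKM of these 3 genes is therefore not comparable with that of a gene free of copies such as Aldoc.

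Shared sequence was common in the group. Among the 35 genes, 10 (28.6%) shared more than 25% of their windows, against 4.67% of the 11419 tested rows that could be matched to a transcript. These were Gapdh, Eno1, Pgk1, Pkm (42.7%), Pgam1 (42.0%), Pdhb (38.5%), Ldhb (37.4%), Ldha (29.4%), Gpi1 (28.3%) and Aldoa. At the other end, 13 genes shared no window, among them Aldoc, Slc2a1, Slc16a1, Gys1 and Hk1. Of the 6 genes with an unadjusted p-value under 0.05, Slc2a1 and Slc16a1 shared 0% and Pygm 0.986%.

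**Figure D2:**
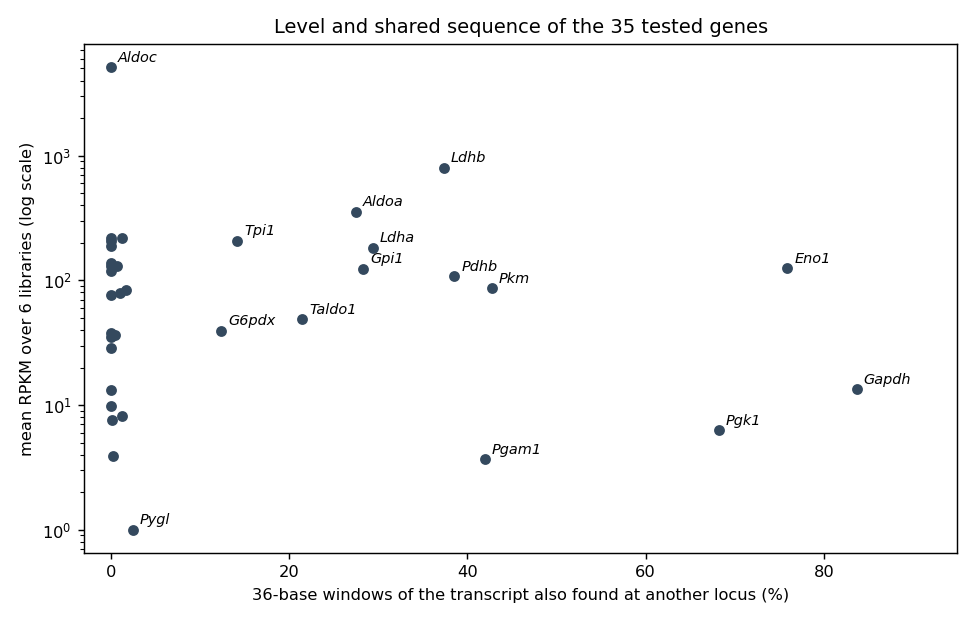
Mean RPKM over the 6 libraries (log scale) against the share of 36-base transcript windows that also occur at another locus (%), 1 point per tested gene, with names for genes above 10% and for Aldoc and Pygl. Gapdh, Eno1 and Pgk1 lie furthest to the right, at 83.7%, 75.9% and 68.2%, and Aldoc lies at 0% with the highest RPKM.

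Lactate exchange was represented by 2 dehydrogenase subunits and 1 abundant transporter. Ldhb, the heart-type subunit of lactate dehydrogenase (mm9 chromosome 6 from 142438769 to 142456463, 8 exons), was the most abundant gene of this role and the 62nd highest row of the table. It measured 738.2, 678.9 and 752.7 RPKM in ULAs and 918.5, 929.2 and 782.2 RPKM in DLAs. Every DLA value exceeded every ULA value, the only gene of the 35 (2.86%) with this order, which 9.27% of all tested rows showed. The log2 fold change was −0.27 (adjusted p = 0.228, SE 0.10), a level 1.21-fold higher in DLAs.

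Ldha, the muscle-type subunit, which favours the formation of lactate, measured 166.2, 198.5 and 217.6 RPKM in ULAs and 142.9, 187.8 and 182.5 RPKM in DLAs. Here ULAs were higher in 3 of 3 brains, opposite to Ldhb. The ranges overlapped (log2 fold change 0.18, adjusted p = 0.360, SE 0.09). As a share of both subunits, Ldha made up 18.4%, 22.6% and 22.4% in ULAs and 13.5%, 16.8% and 18.9% in DLAs. Within each brain the share was higher in ULAs, by 4.74 ± 1.16 percentage points (SD, n = 3), although the ULA share of brain 1 lay below the DLA share of brain 3. The exact paired permutation p was 0.25, the smallest possible. The coding stretch of Ldha with the most copies elsewhere among those with a counterpart in Ldhb (exon 2, chr7:46847620-46847655, plus strand) and the start of the Ldhb coding sequence (exon 2, chr6:142505505-142505540, minus strand, both GRCm38) are shown 5′ to 3′ with the 9 differing bases in capitals.
Ldha: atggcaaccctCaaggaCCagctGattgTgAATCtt
Ldhb: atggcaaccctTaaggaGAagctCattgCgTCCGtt
The printed window of Ldha was found at 8 other loci and that of Ldhb at none, so reads of these stretches separate the 2 subunits from each other but not Ldha from its own copies.

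Slc16a1, the monocarboxylate transporter MCT1 (5 exons, mm9 chromosome 3 from 104442591 to 104462385), carries lactate and pyruvate across the cell membrane. Its level was 94.43, 83.92 and 73.82 RPKM in ULAs and 73.00, 63.56 and 66.51 RPKM in DLAs. Every ULA value was above every DLA value, by the narrowest margin between the ULAs of brain 3 and the DLAs of brain 1. The log2 fold change was 0.30 (adjusted p = 0.179, SE 0.10), or 1.23-fold with a 95% interval of 1.06 to 1.44. MCT1 is also expressed by oligodendrocytes and endothelial cells. The summed oligodendrocyte markers were higher in DLAs in each brain, those of endothelial cells were at most 4.22 RPKM, and the part of either in the value of Slc16a1 was not tested. Slc16a3 and Slc16a7, which encode MCT4, the astrocytic lactate exporter, and MCT2, the neuronal importer, were listed at 0.18–0.50 and 0.01–0.23 RPKM. These values rested on 12 to 32 and 1 to 16 reads per library, so layer differences of the 2 genes were not detectable at this depth. Slc16a1 held at least 99.3% of the summed RPKM of the 3 transporters in every library.

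Among the 35 genes, 4 had all ULA values above all DLA values (11.4%, against 6.59% of all tested rows), namely Slc2a1, Slc16a1, Pdk1 and Gys1. With Ldhb in the opposite direction this made 5 genes (14.3%, against 15.9% of all tested rows), so separation of the layers was about as frequent as in the table as a whole.

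Entry of pyruvate into mitochondria was represented by 5 genes, none with an unadjusted p-value under 0.05. Pdk2, a kinase that switches off pyruvate dehydrogenase, was the most abundant, at 120.3, 121.6 and 151.4 RPKM in ULAs and 140.0, 160.8 and 136.1 RPKM in DLAs. The order of the layers in brain 3 was opposite to that in brains 1 and 2 (log2 fold change −0.16, adjusted p = 0.542, SE 0.12). Pdk1, a related kinase that responds to hypoxia, was at 4.35, 4.36 and 4.58 RPKM in ULAs and 3.33, 2.65 and 4.18 RPKM in DLAs. The ULA values were close to each other and above all DLA values, and the log2 fold change of 0.32 (adjusted p = 0.307, SE 0.15) did not pass. Pdk2 made up between 96.5% and 98.4% of the summed RPKM of the 2 kinases. This sum leaves out Pdk3 and Pdk4, which are outside the group. Their means over the libraries were 8.35 and 25.9 RPKM, above the 3.91 RPKM of Pdk1. Pdha1 and Pdhb, the catalytic subunits of pyruvate dehydrogenase, had means of 83.0 ± 1.79 and 104.6 ± 5.81 RPKM in ULAs and 84.1 ± 5.15 and 111.7 ± 3.40 RPKM in DLAs. Pcx, pyruvate carboxylase, which refills the citrate cycle and is largely astrocytic in brain, had means of 34.7 ± 3.19 and 41.2 ± 9.70 RPKM, with the DLA values spread from 31.57 to 50.97.

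Glycogen turnover was represented by 8 genes. The Pgm2 row lies on chromosome 4 and is the gene that RefSeq on GRCm38.p6 now calls Pgm1, and the Pgm1 row lies on chromosome 5 and is now called Pgm2. The former, the main phosphoglucomutase, which links glucose phosphate to the glycogen precursor, was the most abundant gene of this role. Under its listed name Pgm2 it measured 192.1, 199.6 and 234.0 RPKM in ULAs and 210.6, 244.0 and 239.2 RPKM in DLAs. DLAs were higher in 3 of 3 brains, with overlapping ranges (log2 fold change −0.15, adjusted p = 0.466, SE 0.10). Ugp2, which makes UDP-glucose, was similar in level (207.2 ± 29.1 and 227.6 ± 13.9 RPKM) and was also higher in DLAs in 3 of 3 brains. Gys1, the glycogen synthase outside liver, was at 32.08, 30.41 and 30.98 RPKM in ULAs and 29.31, 26.90 and 22.89 RPKM in DLAs. All ULA values of Gys1 were above all DLA values, with a log2 fold change of 0.24 (adjusted p = 0.315, SE 0.11). The branching enzyme gene Gbe1 was at 8.78–10.6 RPKM and the row listed as Pgm1 at 11.9–15.01 RPKM over all libraries.

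Of the 3 glycogen phosphorylases, which release glucose units from glycogen, the brain form Pygb and the muscle form Pygm were both well expressed and the liver form Pygl was near 1 RPKM. Pygm (20 exons, mm9 chromosome 19 from 6384429 to 6398459) measured 73.44, 58.66 and 79.45 RPKM in ULAs and 89.78, 91.88 and 77.95 RPKM in DLAs. DLAs were higher in brains 1 and 2, and in brain 3 the 2 layers were within 1.02-fold of each other (log2 fold change −0.30, adjusted p = 0.281, SE 0.13). Pygb measured 145.0, 120.2 and 142.1 RPKM in ULAs and 135.2, 133.2 and 109.9 RPKM in DLAs, with ULAs higher in brains 1 and 3.

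The balance of the 2 isoforms separated the layers. Pygm made up 33.4%, 32.6% and 35.7% of the summed phosphorylase RPKM in ULAs and 39.8%, 40.7% and 41.3% in DLAs. The share was higher in all DLA libraries than in any ULA library, by 6.69 ± 1.28 percentage points (SD, n = 3 brains), including brain 3, in which the Pygm level itself hardly differed. The exact paired permutation p was 0.25, the smallest that 3 pairs can give. The shares of Pygm, Ldha, Aldoa and Pfkl were picked for description from those of 8 isozyme families after the values had been seen, and those of the other 4 families (hexokinases, Pfkfb enzymes, monocarboxylate transporters and Pdk kinases) did not have 1 direction in all brains. Pygm and Pygb shared 0.986% and 0.723% of their windows with other loci, and one stretch of exon 8 was identical in both. It lies at chr19:6388746-6388781 in Pygm and chr2:150814995-150815030 in Pygb (GRCm38, plus strand) and is printed 5′ to 3′ with no capitals, since 0 bases differ.
Pygm: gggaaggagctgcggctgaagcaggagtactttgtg
Pygb: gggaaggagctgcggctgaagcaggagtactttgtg
Pygl was at 1.25, 1.10 and 1.27 RPKM in ULAs and 0.63, 0.66 and 1.10 RPKM in DLAs, from 37 to 96 reads per library. Its ULA values were higher in 3 of 3 brains, and its log2 fold change of 0.31 (SE 0.17) is on a scale that understates differences of such low values.

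**Figure D3:**
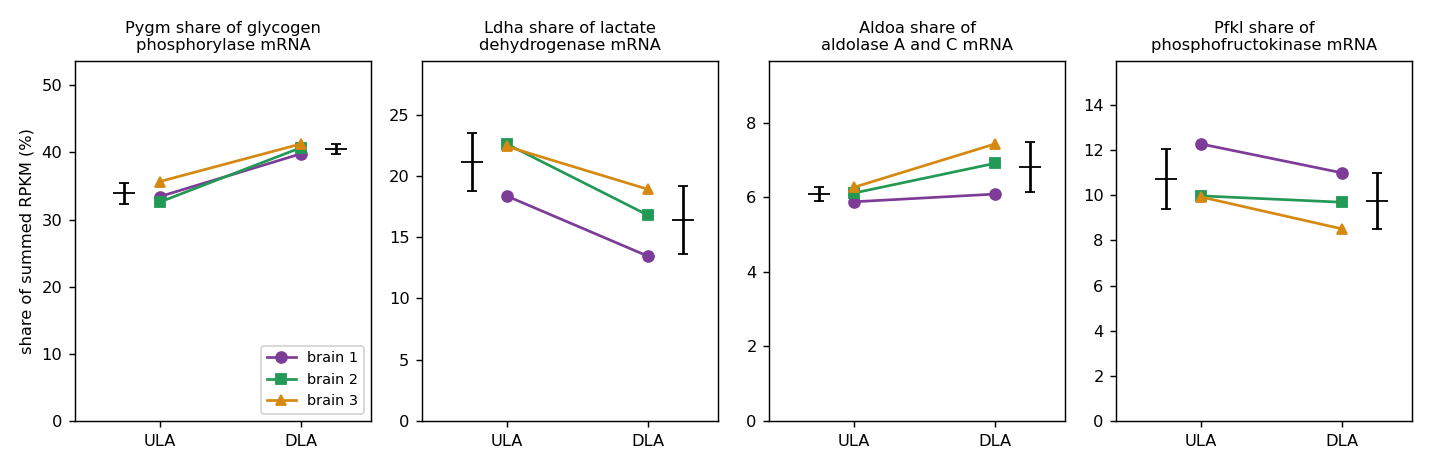
Share of the summed RPKM of an isozyme family (%) held by Pygm, Ldha, Aldoa and Pfkl in ULAs and DLAs, with 1 line per brain and the mean ± SD of the 3 libraries beside each layer. For Pygm, the 3 ULA shares (32.6% to 35.7%) lie below the 3 DLA shares (39.8% to 41.3%), whereas for the other 3 families, which like Pygm were picked for having 1 direction in all brains, the ranges of the layers overlap.

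The pentose phosphate pathway, which branches from glycolysis to supply NADPH and ribose, was represented by 3 genes, with log2 fold changes from −0.23 for Taldo1 to −0.02 for Tkt. Tkt, transketolase, measured 122.1, 109.1 and 122.8 RPKM in ULAs and 112.6, 131.2 and 115.7 RPKM in DLAs. The layers overlapped throughout (adjusted p = 0.944, SE of the log2 fold change 0.11). G6pdx, the entry dehydrogenase, had means of 38.2 ± 5.82 and 40.7 ± 1.79 RPKM, and Taldo1, transaldolase, 44.9 ± 7.86 and 52.6 ± 6.15 RPKM in ULAs and DLAs.

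The direction of the layer difference depended on the brain. In brains 1 and 2, 13 and 11 of the 35 genes were higher in ULAs (37.1% and 31.4%, against 44.9% and 47.4% of all tested rows), and in brain 3 this held for 26 of 35 (74.3%, against 43.9%). The median log2 ratio of the genes was −0.08, −0.16 and 0.11 in brains 1, 2 and 3, whereas that of all tested rows was −0.03, −0.02 and −0.04. A total of 12 genes were higher in DLAs in brains 1 and 2 and higher in ULAs in brain 3 (34.3%, against 13.3% of all tested rows), and 0 genes showed the reverse (against 14.0%). Other scalings were tried after the data had been seen. With median centring the numbers higher in ULAs were 13, 10 and 28 of 35 (against 47.3%, 45.1% and 50.3% of all tested rows). On that scale 15 genes (42.9%, against 15.8% of all tested rows) were higher in DLAs in brains 1 and 2 only. With quantile normalization the numbers higher in ULAs were 17, 16 and 26 (against 50.8%, 49.3% and 49.8% of rows), and 8 genes (22.9%, against 13.2%) had this pattern. On the deposited scale, the 12 genes were Hk1, Pfkp, Aldoc, Tpi1, Pgam1, Eno1, Pkm, Pdk2, Pcx, Pygm, G6pdx and Taldo1. No test over the group was made, because its genes share libraries and are not replicates.

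Summed over the 38 genes without Aldoc, the RPKM was 3640, 3589 and 3990 in ULAs and 3903, 4288 and 3819 in DLAs of brains 1, 2 and 3. The DLAs were thus higher in brains 1 and 2 and the ULAs in brain 3. The sum over all tested rows without Aldoc was higher in DLAs in all 3 brains (482642, 471707 and 500833 RPKM in ULAs and 493872, 512065 and 505537 in DLAs). Brain 3 had the highest summed oligodendrocyte markers of both layers (181.3 RPKM in ULAs, against 90.2 and 87.7, and 285.4 in DLAs, against 179.2 and 205.6). Markers of oligodendrocyte precursors, 2 of 6 of which averaged 1 RPKM or more, summed to 89.2, 85.4 and 96.8 in ULAs and 133.9, 131.9 and 97.1 in DLAs, so that the layers were apart in brains 1 and 2 and within 1 RPKM of each other in brain 3. The 4 red blood cell markers that have a row each averaged above 1 RPKM over the 6 libraries. They summed to 0.94–1.79 in ULAs and to 15.4, 16.0 and 76.7 in the DLAs of brains 1, 2 and 3. The part of these in the result was not tested.

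**Figure D4:**
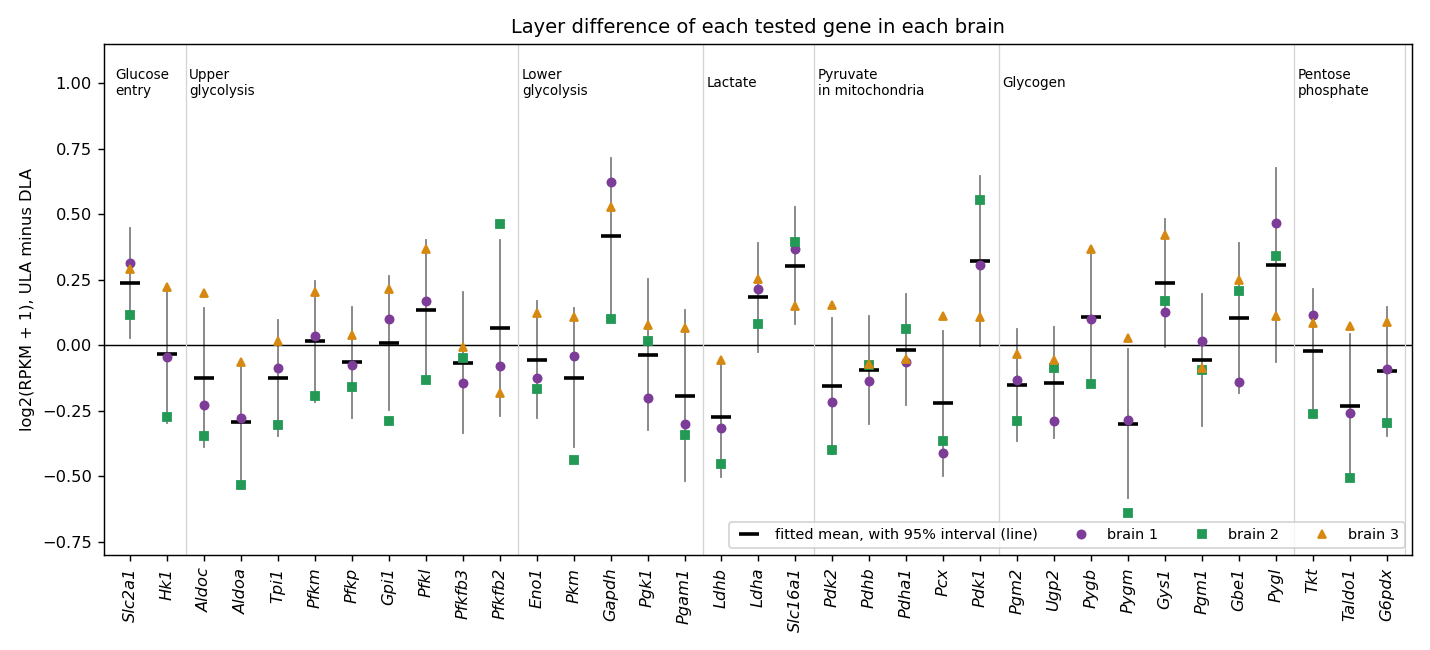
Difference in log2(RPKM + 1), ULA minus DLA, for each of the 35 tested genes in each brain (points), with the fitted mean (bar) and its 95% interval (line). Brain 3 lies above 0 for 12 genes whose values in brains 1 and 2 are negative, and all fitted means lie within 0.5 of 0.

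Genes with the same direction in 3 of 3 brains numbered 7 for ULAs (20.0%, against 15.2% of all tested rows) and 6 for DLAs (17.1%, against 23.2%). The former were Slc2a1, Slc16a1, Ldha, Gapdh, Pdk1, Gys1 and Pygl, and the latter Aldoa, Ldhb, Pfkfb3, Pdhb, Ugp2 and Pgm2. When brain 3 was left out, 4 of 35 genes passed (11.4%, against 7.95% of all tested rows). These were Slc16a1, higher in ULAs (1 gene, 2.86%, against 3.04% of rows, log2 fold change 0.38, adjusted p = 0.046), and Aldoa, Ldhb and Pygm, higher in DLAs (3 genes, 8.57%, against 4.91% of rows, log2 fold changes −0.41, −0.38 and −0.46, with adjusted p-values of 0.0292, 0.0432 and 0.0161). Without brain 2 the latter 3 stood at −0.17, −0.19 and −0.13. With brain 1 or brain 2 left out, 0 genes passed (against 1.64% and 2.09% of all tested rows), and at an unadjusted p-value under 0.05 there were 0 and 6 (against 7.87% and 14.1% of rows).

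The wider pathway was examined through 98 further genes of glycolysis, transport, mitochondrial pyruvate use, glycogen regulation, the pentose phosphate pathway and hypoxia response. Of these, 71 reached a mean of 1 RPKM. In the limma comparison 0 of these 71 genes passed in either direction, where 1.63% of all tested rows did. At an unadjusted p-value under 0.05 there were 6 genes in the ULA and 5 in the DLA direction (8.45% and 7.04%, against 5.64% and 10.8% of all tested rows).

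Among the 9 further transport genes tested, 3 had an unadjusted p-value under 0.05, and all 3 had the higher value in ULAs (33.3%, against 5.64% of all tested rows). This list was 1 of 6, and no test over it was made. Bsg, basigin, the chaperone that brings MCT1 to the membrane, was abundant, at 488.7, 413.2 and 473.0 RPKM in ULAs and 357.5, 382.4 and 353.3 RPKM in DLAs. All its ULA values exceeded its DLA values, as for Slc16a1, with a log2 fold change of 0.33 (adjusted p = 0.154, SE 0.10). A pair of alternatives brought it past the threshold, quantile normalization (adjusted p = 0.0321) and leaving out brain 2 (0.0327), and the highest value was 0.873. Slc2a4, the insulin-responsive glucose transporter, and Slc2a10 had means of 5.67 and 21.4 RPKM in ULAs and 3.58 and 17.7 RPKM in DLAs. Slc2a8, the most abundant further glucose transporter, had means of 60.7 and 66.4 RPKM. The neuronal glucose transporter Slc2a3 did not reach 1 RPKM.

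In glycolysis proper, Eno2, the neuronal enolase, was at 10.45, 6.98 and 10.11 RPKM in ULAs and 5.31, 5.99 and 6.24 RPKM in DLAs, with no overlap (log2 fold change 0.56, adjusted p = 0.107, SE 0.15). The summed neuronal markers, of which Snap25 made up the most, overlapped between the layers. Rbfox3 (0.25–0.40 RPKM in ULAs and 0.07–0.23 in DLAs) and Tubb3 (0.20–0.42 and 0.08–0.17) were higher in every ULA library. Slc17a7 (0.30–0.49 and 0.57–0.61) was higher in every DLA library, and the other neuronal markers overlapped. The part of neuronal RNA in the value of Eno2 was not tested. Bpgm, which makes the bisphosphoglycerate that regulates haemoglobin, was at 29.11, 30.55 and 36.65 RPKM in ULAs and 41.55, 44.86 and 42.40 RPKM in DLAs (log2 fold change −0.41, adjusted p = 0.104, SE 0.11). Red blood cell markers were higher in all DLA libraries as well, and their part in the value of Bpgm was not tested. The glycerol phosphate dehydrogenases Gpd1 and Gpd2 had means of 42.8 and 60.9 RPKM in ULAs and 38.0 and 59.0 RPKM in DLAs, with overlap.

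Of 14 tested genes of mitochondrial pyruvate use, Pdk3 was higher in ULAs in 3 of 3 brains (means of 9.63 and 7.08 RPKM), and Pdp1, the phosphatase opposing the kinases, and Mpc2, a subunit of the pyruvate carrier, were higher in DLAs in 3 of 3 brains (4.18 and 5.98, and 82.1 and 97.7 RPKM). Their adjusted p-values were 0.153, 0.194 and 0.233, and Dld, the shared dehydrogenase subunit, had 0.657. None of 18 genes of glycogen regulation had an unadjusted p-value under 0.05. The most abundant of them, Phkg1, a catalytic subunit of phosphorylase kinase, and Gaa, the lysosomal glucosidase, had means of 135.9 and 114.5 RPKM in ULAs and 139.8 and 108.6 RPKM in DLAs. Likewise none of 7 further pentose phosphate genes did, with Pgls and Pgd at 43.5 and 21.5 RPKM in ULAs and 51.2 and 24.0 RPKM in DLAs.

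Among 13 hypoxia-responsive genes, P4ha1, a collagen prolyl hydroxylase, was at 75.03, 74.69 and 74.49 RPKM in ULAs and 54.00, 59.35 and 61.49 RPKM in DLAs, without overlap (log2 fold change 0.36, adjusted p = 0.115, SE 0.10). Higd1a and Ndrg1 were higher in DLAs in 3 of 3 brains, with means of 32.6 and 2.01 RPKM in DLAs and 25.4 and 0.963 RPKM in ULAs and adjusted p-values of 0.159 and 0.117. Ndrg1 is also expressed by oligodendrocytes, whose markers were higher in DLAs in each brain, and their part in its value was not tested. Vegfa, the best known target of this response, was at 169.0 ± 4.26 and 170.9 ± 15.9 RPKM, and its log2 fold change was −0.01 (SE 0.10).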

How the data were processed

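Messenger RNA was measured by single-read sequencing of 36 bases after SMART-Seq v4 amplification, in 3 ULA and 3 DLA libraries. The authors deposited RPKM per symbol, truncated to 2 decimals, with the mRNA length of each row. The labels' processing notes name bcl2fastq 1.8.4, CASAVA 1.8.2 and the mm9 build, whereas the aligner, the counting program and the treatment of reads with several matches are not given in the sources used here. Reads matching several loci can therefore lower or raise the levels of genes with copies, and amplification of small inputs adds noise that counting intervals do not cover. Depth was found as the number of reads that makes the RPKM of rows of up to 500 bases whole multiples of 1 read (at least 99.9% of values, at most 88.3% for the next best), and is used for precision only.

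Groups follow the sample titles. Rows averaging 1 RPKM or more (13999) were compared on log2(RPKM + 1) with limma 3.58.1 in R 4.3.3 (lmFit, eBayes with trend), with brain and layer as terms, as the study compares layers by pairs, in 2-sided tests with Benjamini-Hochberg adjustment over all rows and a threshold of 0.05. The design gives layers of the same brains and the labels number the libraries. Deviations from the layer mean correlated between libraries of one number (r of 0.42, 0.33 and 0.34, against −0.20 to −0.16 between numbers), and genes are not independent replicates. In simulated data with 200 of 13999 genes changed, 0 genes were called with no change, and 35.5%, 100% and 100% of genes changed by 0.5, 1 and 2 (log2) were called. Isozyme shares are RPKM divided by the sum over the family's genes within the group, so that Pfkfb4, Pdk3 and Pdk4 are left out.

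The 36-base windows were taken from GENCODE M21 transcripts on GRCm38, which matched 11419 of the tested rows (81.6%) and 35 of 35 genes of the group, and gene names were compared with RefSeq on GRCm38.p6. No coordinates were carried between builds, and no genome sequence was used. The members and gene lists were chosen with earlier results of these data known. From the lists of further pathway genes, 1 gene is not reported here and was left out of their counts. Values in every library are given for genes with an unadjusted p-value under 0.05 and the most abundant gene of each role, and, of the further pathway genes, those with an unadjusted p-value under 0.05 and the 2 most abundant of each list are named. Others were named after their values were seen. The fit was repeated without the brain term, with 0.1 added in place of 1, unfiltered, on rows averaging 5 RPKM or more, after median centring or quantile normalization, without the trend, with a correction for mRNA length (loess, span 0.5) and with each brain left out. The direction by brain under other scalings was added after the data had been seen. Python 3.11.15 with pandas 2.3.3, numpy 2.4.6, scipy 1.17.1 and matplotlib 3.10.9 did the rest.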

Additional observations from a re-analysis of the deposited data

How the results depend on the processing

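The number of tested rows that passed was 100 for ULAs and 128 for DLAs. Without the replicate block it was 23 and 18, with no filter 0 and 0, without the variance trend 65 and 79, and with the length correction 63 and 80. With 1 brain left out it ranged from 104 to 426 and from 126 to 687. The number of metabolic genes that passed ranged from 0 to 1 for ULAs and from 0 to 3 for DLAs with 1 brain left out, the higher values being those without brain 3, and was 0 under the other alternatives. Dropping the pairing changed no call among the 35 genes. Their median log2 fold change lay between −0.10 (without brain 3) and 0.015 (quantile normalization).

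Of 382 repeats for single genes of the group, 359 kept their direction and side of the threshold, 4 newly passed, and 19 in 11 genes changed sign. Under quantile normalization the log2 fold changes were 0.062 for Hk1, 0.015 for Pfkp, 0.032 for Eno1, 0.047 for Pdha1 and 0.058 for Tkt. With the length correction they were −0.014 for Gpi1, −0.022 for Pfkm, −0.086 for Pfkfb2 and 0.014 for Pgk1. With 1 brain left out they ranged from −0.16 to 0.089 for Hk1, −0.094 to 0.16 for Gpi1, −0.079 to 0.12 for Pfkm, −0.13 to 0.19 for Pfkfb2, −0.091 to 0.047 for Pgk1, −0.24 to 0.034 for Pkm, −0.057 to 0.0056 for Pdha1, −0.024 to 0.23 for Pygb and −0.090 to 0.10 for Tkt. Of 218 repeats for the further pathway genes, 10 in 7 genes changed sign: Gpd2 (−0.093) and Gaa (−0.0069) with the length correction, Phkg1 (0.068) and Vegfa (0.075) under quantile normalization, and, with 1 brain left out, Gpd1 (−0.13 to 0.41), Slc2a8 (−0.30 to 0.059), Gaa (−0.039 to 0.27), Pgd (−0.33 to 0.026) and Vegfa (−0.078 to 0.058). Another 7 newly passed: Bsg under quantile normalization and without brain 2, Eno2 without brain 2 (adjusted p = 0.0316), and Bpgm, Slc2a4, Ndrg1 and P4ha1 without brain 3 (0.0089, 0.0236, 0.040 and 0.0403). The cause was not tested. Depth limits Slc16a7, Slc16a3, Hk2 and Pygl.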
